A study of Homo sapiens and Mus musculus with 33 samples.

Results

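Messenger RNA of the human colorectal cancer line HCT116 was set against messenger RNA of the mouse colon epithelium, gene by gene, by where each gene ranked within its own library. All 4 control HCT116 libraries and all 3 colon libraries were taken, 7 of the 33 samples of the series. HCT116 is an established line grown from a colon carcinoma, and its control cultures had received the vehicle DMSO for 18 h in glucose-rich medium with serum. The colon libraries came from C57BL/6 mice, male and kept specific pathogen-free, of an age not given in the sources used here. The labels call the material colon epithelium and the study's text also speaks of colon crypts. The lining had been released with EDTA and strained with no sort for 1 cell type, and its mix of surface and crypt cells, which bears on the stem cell and cell cycle genes, was not measured separately. The study used both materials to examine histone crotonylation. Species and cell state change together here: human against mouse, carcinoma line against normal tissue, culture against animal. These cannot be told apart in any value below.

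The colon epithelium renews itself from stem cells at the crypt base, whose daughters divide a few times and then become absorptive colonocytes, mucus-making goblet cells or rarer hormone-secreting and tuft cells. Colonocytes take up butyrate and other short-chain fatty acids made by gut bacteria, burn them in mitochondria, and are exposed to them as inhibitors of histone deacetylases. Those of class I, among them HDAC1, HDAC2 and HDAC3, also remove crotonyl groups from histones, which ties the enzymes that make, carry and consume acyl-CoA to the marks the study measured.

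Genes were paired when the human and the mouse symbol were identical in capitals, which gave 14862 genes and is not a test of orthology. Mouse genes are written here in human capitals. CPM, each gene's count scaled to the total of its library, was ranked among these genes in each library, where a high percentile is a high rank. A difference is given in percentile points, HCT116 mean minus colon mean, with its standard error (SE), because a CPM ratio between genomes with different gene models has no direct reading. A gene was called higher or lower when the difference was at least 20 points and limma's adjusted p was under 0.05, over the 11400 genes with a mean of at least 1 CPM in either material. A gene in the top 20% of both could therefore not be called. All genes listed at 0 in a library share 1 average rank, between 10.8 and 13 in HCT116.

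HCT116 replicate 3 stood apart from the other HCT116 libraries before any comparison with the colon. Its genes lay a median of 4.19 points from the mean of the other HCT116 libraries, against 2.03 to 2.74 points for replicates 1, 2 and 4. It also held 9.28% of its counts in mitochondrially encoded genes, against 1.57% to 2.29% in those libraries. Totals were 36312506 to 53415604 counts in HCT116 and 8166406 to 10707901 in the colon, so that 3 counts correspond to 0.0562 to 0.0826 CPM and 0.28 to 0.367 CPM. Genes at 1 CPM or more numbered 12979 to 13453 in HCT116 and 12642 to 12825 in the colon, an order that turned when matched genes alone were counted (10051 to 10188 and 10375 to 10566; exact permutation p = 0.0571 both ways). Odd numbers made up 55.9% to 80.3% of the counts from 1 to 9 in the HCT116 libraries and 85.3% to 87.5% in the colon libraries, and low values and zeros are given as listed.

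The materials shared a broad ranking and differed in a large minority of genes. Spearman's rho across the matched genes was 0.718 to 0.744 between an HCT116 and a colon library, against 0.955 to 0.989 within HCT116 and 0.988 to 0.989 within the colon, and genes are not independent replicates. Of the tested genes 1854 were called higher in HCT116 (16.3%) and 1884 lower (16.5%), and the libraries of the groups did not overlap for any of the 3738, nor for 78.5% of all tested genes. Counts for the gene lists below are to be read against these shares, 16.3% higher and 16.5% lower. In 40.7% of tested genes the difference was within 10 points. Without HCT116 replicate 3, 1879 genes were higher, including 1787 of the 1854, and 1881 were lower, including 1791 of the 1884.

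**Figure D1:**
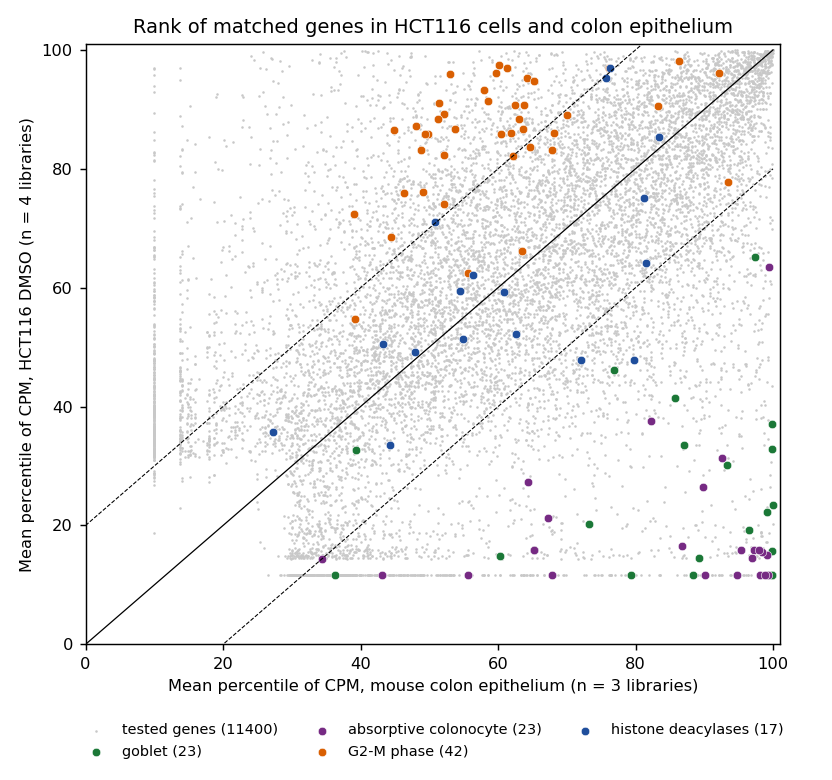
Mean percentile rank of each of the 11400 tested genes in HCT116 (4 libraries, vertical) against mouse colon epithelium (3 libraries, horizontal), in grey, with the goblet, absorptive colonocyte, G2-M phase and histone deacylase lists coloured. The solid line is equal rank and the dashed lines lie 20 points to either side; 22 of 23 goblet and 23 of 23 absorptive genes fall below them, and 31 of 42 G2-M genes lie above.

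Both materials ranked keratins of simple epithelium near the top, whereas most genes of intestinal identity were lower in HCT116. The label on the line is a colon cancer epithelial cell, and of 26 genes of intestinal epithelial identity 18 were lower in HCT116, 1 was higher and 7 were not called, with a median difference of -38.1 points against 0.19 over all tested genes. EPCAM, an adhesion molecule of epithelial cells, stood at 447, 368, 309 and 388 CPM in the HCT116 libraries and 2038, 1793 and 1769 CPM in the colon. It ranked near the top of both, -2.33 points apart, as did the keratins KRT8, KRT18 and KRT19, within 1.23 points of the colon.

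LGALS4, a lectin of the colonocyte surface, was listed at 0 in all 4 HCT116 libraries and at 3617, 3362 and 3609.9 CPM in the colon, a difference of -88.4 ± 1.37 points (adjusted p = 2.21e-09). HNF4A, a nuclear receptor that maintains enterocyte genes, stood at 0.267, 0.248, 0.409 and 0.73 CPM in HCT116 and 869, 874 and 815 CPM in the colon. CDX1, a homeobox factor of the hindgut, was listed at 0 in HCT116 and at 561, 514 and 473 CPM in the colon. For these 3 genes no HCT116 library came near any colon library. CDX2, the sister factor of CDX1, kept a measurable level of 21.2, 24.2, 24.6 and 22.2 CPM against 508, 493 and 411 CPM, a difference of -40.7 points. CDH17 and VIL1, an intestinal cadherin and a microvillus protein, differed by -82.4 and -81.8 points. The 1 member called higher was CLDN4, a tight junction claudin, at 219.6, 342, 194 and 291 CPM against 61, 61 and 35.5 CPM (24.5 ± 2.67 points, adjusted p = 4.84e-05). Its HCT116 values all exceeded the colon's, where 78.5% of tested genes had no overlap either. Per kb of exon its difference was 7.38 points, below the limit.

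The genes of mature absorptive colonocytes were lower in HCT116 in 23 of 23 tested, with a median of -70.2 points. The count was 22 of 23 without HCT116 replicate 1, 2 or 4, without colon replicate 2, per kb of exon and over tested genes alone. Their summed level was 20.6 to 57.7 CPM in HCT116 and 5236 to 6654 CPM in the colon. GUCA2A, which makes guanylin, a peptide that drives fluid secretion, was listed at 0 in HCT116 and at 708, 528 and 437 CPM in the colon (-87.3 ± 1.38 points). CDHR5, a cadherin that links microvilli, was listed at 0 and at 753, 697 and 624 CPM. SLC26A3, the chloride-bicarbonate exchanger of the surface, was listed at 0 in HCT116 and at 258, 229 and 167 CPM in the colon. Both sets of libraries lay at opposite ends of the ranking for each of these. KRT20, a keratin of differentiated cells, kept 0.824, 1.1, 0.512 and 1.1 CPM in HCT116 against 225, 201 and 118 CPM. The smallest difference belonged to DHRS9, a retinol dehydrogenase, at -20.1 points, close to the limit of 20.

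Goblet cell genes followed the same course, with 22 of 23 lower and a median of -67.1 points. MUC2, the gel-forming mucin of the colon, stood at 0.512, 0, 0.307 and 0.0749 CPM in HCT116 and at 6746, 12351 and 9745 CPM in the colon. AGR2, a disulphide isomerase needed to fold it, was listed at 0 in HCT116 and at 2923, 3649 and 3062 CPM (-88.4 ± 1.37 points). SPDEF and ATOH1, transcription factors of the secretory lineage, differed by -76.8 and -77.3 points. The list summed to 49.1 to 69.8 CPM in HCT116 and 21517 to 29576 CPM in the colon, and the member not called was MUC1, a membrane mucin, at -6.52 points. Hormone-cell genes were lower in 13 of 20 (median -25.2 points), and in 8, with 1 higher, when ranks were taken over tested genes alone (median -13.9 points). They were led by CHGA and CHGB, proteins of secretory granules, at -78.6 and -77.2 points. CHGB was listed at 0 in HCT116 replicates 1, 2 and 4 and at 0.844 CPM in replicate 3, against 189, 203 and 178 CPM in the colon. Tuft cell genes were lower in 9 of 13 (median -26.8 points), among them TRPM5, a cation channel of taste-like cells, with a difference of -52.2 points.

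**Figure D2:**
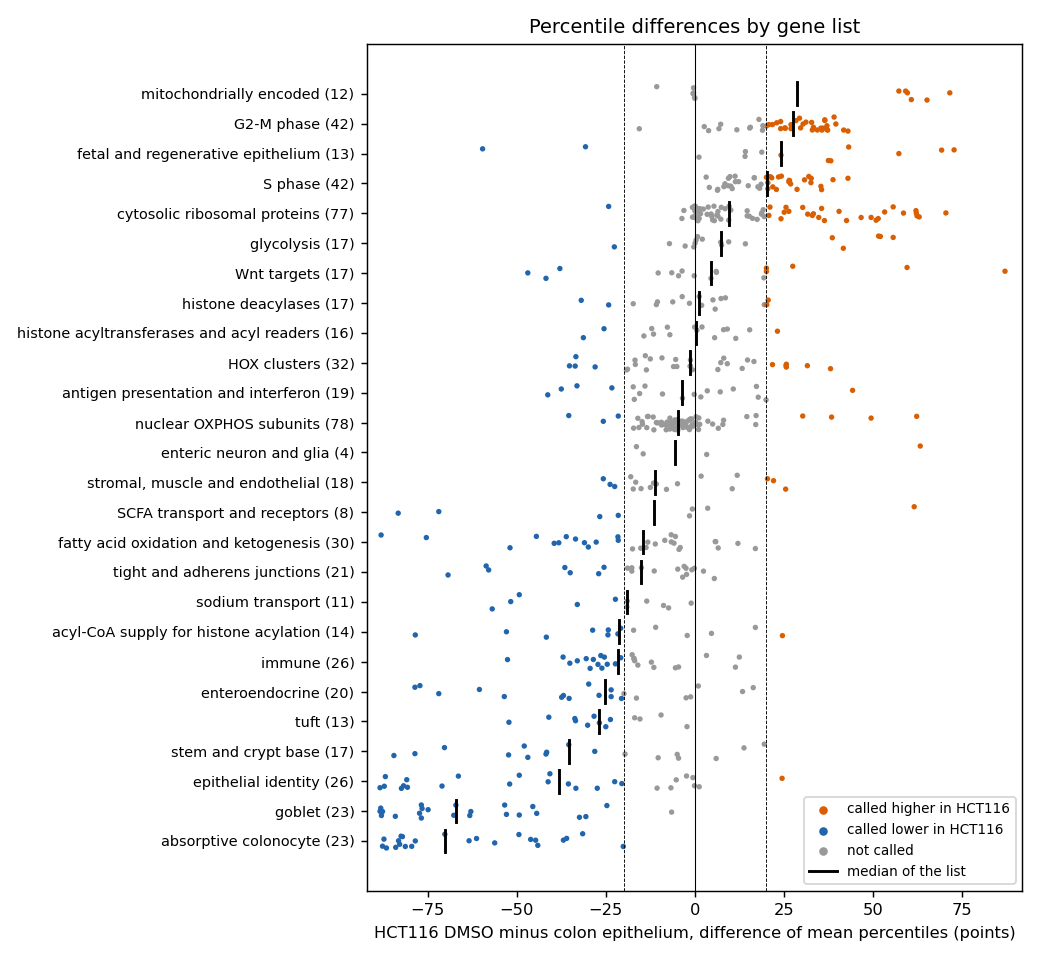
Percentile difference of each tested member of the 26 gene lists, HCT116 mean minus colon mean in points, with the median of each list marked. Goblet and absorptive lists sit far to the left, with medians of -67.1 and -70.2 points, while G2-M phase and S phase lists sit to the right at 27.7 and 20.3 points.

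Ion transport of the distal colon was lower in part. Of 11 genes of aldosterone-regulated sodium uptake 5 were lower and none higher, against 16.5% and 16.3% of all tested genes. Their median was -19.1 points. SGK1, a kinase induced by mineralocorticoid, stood at 3.59, 2.56, 1.43 and 2 CPM in HCT116 and 229, 152 and 137 CPM in the colon, -56.9 ± 2.03 points. HSD11B2, which keeps cortisol off the mineralocorticoid receptor, and NR3C2, the receptor itself, differed by -51.7 and -49.3 points. The channel subunit SCNN1A, in contrast, did not differ by the limit (-7.37 points). Among 21 junction genes 7 were lower and none higher, against the same shares of all tested genes, with a median of -15 points. The claudins CLDN8 and CLDN2 led at -69.3 and -58.6 points, while the catenins CTNNB1 and CTNNA1 were within 2.31 points of the colon.

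Markers of crypt base and stem cells were lower in 10 of 17, with a median of -35.4 points. None was called higher, with MSI1, an RNA-binding protein of progenitors, just short of the limit at 19.5 points, and 1 was called higher per kb of exon, over tested genes alone, with HCT116 thinned to the colon depth, and without HCT116 replicate 1, 2 or 4 or colon replicate 2. LGR5, the Wnt-regulated receptor that marks colonic stem cells, was listed at 0 in every HCT116 library and at 24.1, 21.8 and 16.9 CPM in the colon (-41.8 ± 1.82 points). ASCL2, the factor that maintains those cells, was likewise listed at 0, against 29.4, 29.9 and 24.6 CPM. KIT and REG4, which mark secretory cells next to stem cells in the mouse colon, differed by -84.5 and -78.6 points and were called. SOX9 and CD44, of broader crypt expression, differed by -4.57 and 5.99 points and were not called.

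Wnt target genes did not move as 1 group, with 5 of 17 higher, 3 lower and a median of 4.5 points. Over all tested genes 16.3% were higher and 16.5% lower. Without colon replicate 1 there were 3 higher, and per kb of exon 4 were higher with a median of 2.3 points. HCT116 is known for a stabilised beta-catenin. AXIN2, a feedback inhibitor read as a Wnt reporter, was lower at 8.13, 13.8, 11.7 and 11.1 CPM against 91, 114 and 91.7 CPM (-37.9 points). DKK1, a secreted Wnt antagonist, stood at 447, 420.0, 196 and 408 CPM in HCT116 and was listed at 0 in all 3 colon libraries (87.1 ± 1.68 points, adjusted p = 4.07e-09). HCT116 replicate 3 was the lowest of the 4 for DKK1 and still ranked at the 94.7th percentile. MYC, the growth-promoting factor, stood at 388, 493, 257 and 488 CPM and 66.7, 67.4 and 67.5 CPM, a difference of 20.1 points just past the limit. CCND1, the cyclin of early G1, differed by 4.54 points.

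Genes used as markers of fetal and regenerating gut epithelium were higher in 7 of 13 and lower in 2, with a median of 24.2 points (4 of 9 higher and a median of 14.2 points with genes over 10% repeated left out). IGF2BP3, an oncofetal RNA-binding protein, stood at 73.5, 91.3, 48.5 and 119 CPM in HCT116 and was listed at 0 in the colon (72.8 ± 2.82 points). TRNP1, a nuclear protein of progenitors, was 69.3 points higher. CLU, a secreted chaperone that marks revival cells after injury, stood at 175, 241, 203 and 194 CPM against 5.88, 4.48 and 2.06 CPM. HCT116 replicate 3 was the lowest of the 4 for IGF2BP3 and replicate 1 for CLU. HMGA1 and HMGA2, chromatin proteins of fetal tissue, were 37.5 and 38.2 points higher, with 69% and 26.3% of windows repeated in mouse. KRT7, a keratin of ductal epithelia, and IL1RN, the interleukin-1 receptor antagonist, went the other way at -59.6 and -30.7 points.

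Cell cycle genes were mostly higher in HCT116, with 31 of 42 G2-M genes and 22 of 42 S phase genes called higher and none lower. Medians were 27.7 and 20.3 points. Summed, the G2-M list held 4827 to 7271 CPM in HCT116 and 1355 to 1779 CPM in the colon. PLK1, the kinase that drives entry into mitosis, stood at 286, 212, 191 and 177 CPM in HCT116 and 38.9, 48.6 and 31 CPM in the colon (29.4 ± 1.99 points, adjusted p = 2.67e-06). HMMR, a protein of the mitotic spindle, stood at 134, 113, 61.5 and 105 CPM and 12.1, 12.8 and 7.73 CPM (41.8 points). In S phase, CDC6, which loads the replicative helicase, stood at 199.8, 141, 131 and 115 CPM against 14.3, 16.2 and 13.5 CPM (43 points). Groups did not overlap for any of these, as for 78.5% of tested genes; the lowest HCT116 library was replicate 4 for PLK1 and CDC6 and replicate 3 for HMMR. RRM2, the regulated subunit of ribonucleotide reductase, was 38.8 points higher. MKI67 and TOP2A, the usual stains of dividing cells, differed by 11.8 and 3.87 points and were not called, at 490.3, 470.1, 436 and 459.6 CPM against 107, 130.2 and 88.2 CPM for MKI67. In bulk RNA a larger share of dividing cells and more RNA per dividing cell cannot be told apart.

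Many genes of G2 and M are repressed outside those phases through a cell cycle homology region (CHR) in the promoter, often with CCAAT boxes upstream. Windows of 300 bases, from 250 before to 50 after the start of a gene, were taken for human genes from RefSeq on GRCh38.p14 and searched on both strands for TTTGAA (the CHR core) and CCAAT. Neither run of letters contains the other. Promoters of PLK1 and of CCNB2, a mitotic cyclin, are shown because both genes were called higher and carry both motifs, which are in capitals.
PLK1, chr16:23678639-23678938, plus strand: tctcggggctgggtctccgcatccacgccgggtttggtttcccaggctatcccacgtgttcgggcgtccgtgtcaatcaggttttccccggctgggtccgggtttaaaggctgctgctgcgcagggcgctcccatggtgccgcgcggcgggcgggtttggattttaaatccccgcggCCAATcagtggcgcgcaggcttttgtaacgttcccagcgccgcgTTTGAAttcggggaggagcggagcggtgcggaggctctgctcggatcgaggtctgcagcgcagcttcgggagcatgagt
CCNB2, chr15:59104896-59105195, plus strand: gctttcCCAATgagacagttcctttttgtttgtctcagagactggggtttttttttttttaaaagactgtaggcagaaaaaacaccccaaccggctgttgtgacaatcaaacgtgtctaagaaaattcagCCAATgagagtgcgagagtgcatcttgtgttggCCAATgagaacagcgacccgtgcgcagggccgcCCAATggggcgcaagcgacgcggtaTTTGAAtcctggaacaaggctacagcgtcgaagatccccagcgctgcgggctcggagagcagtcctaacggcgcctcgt
In PLK1 the CHR letters began 29 bases and the CCAAT letters 73 bases before the start. TTTGAA was found in 26 of 37 G2-M promoters (70.3%), in 1 of 38 S phase promoters (2.63%) and in 15.4% of all 27305 promoters. CCAAT was found in 75.7%, 52.6% and 35.7%, and both together in 59.5% of G2-M promoters and 6.08% of all. TTCCCGCC, letters of an E2F site, was found in 28.9% of S phase promoters, 8.11% of G2-M promoters and 3.18% of all. Among all genes called higher in HCT116, TTTGAA stood in 10.7% of promoters against 11.4% for genes called lower and 9.42% for tested genes. A match is a match of letters only.

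**Figure D3:**
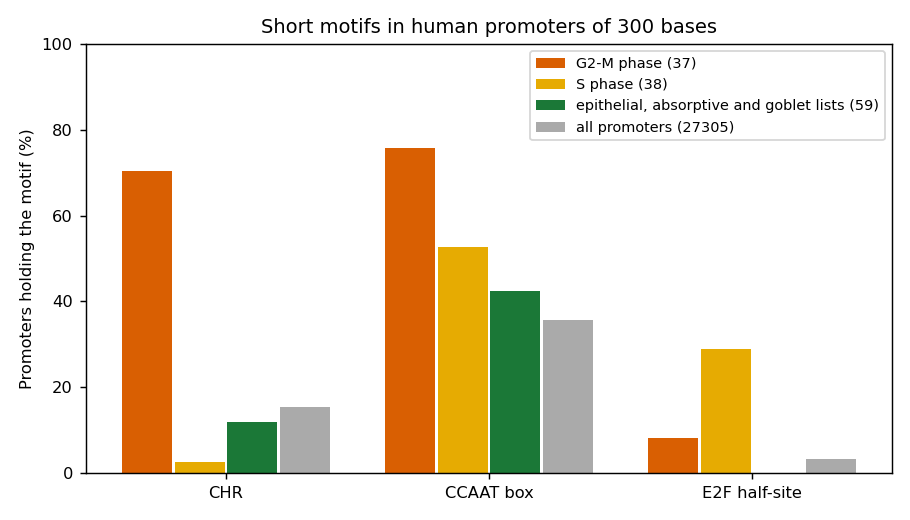
Share of human promoter windows (300 bases) that hold each motif, in percent, for G2-M genes, S phase genes, genes of the epithelial, absorptive and goblet lists, and all promoters. The CHR bar reaches 70.3% in G2-M genes and 2.63% in S phase genes.

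Of 8 tested transporters and receptors of short-chain fatty acids 4 were lower in HCT116, 1 was higher and 3 were not called. Over all tested genes 16.5% were lower and 16.3% higher. The median of the list was -11.5 points (-5.5 ranked among tested genes alone and -1.5 with no filter on low values or a filter at a mean of 1 CPM). With genes over 10% repeated left out, 2 of 6 were lower, with a median of -1.1 points. SLC5A8, the sodium-coupled carrier that brings butyrate into colonocytes, was listed at 0 in all HCT116 libraries and at 270.5, 168 and 226 CPM in the colon (-83.3 ± 1.55 points, adjusted p = 3.39e-09). FFAR2, a receptor for acetate and propionate, was also listed at 0, against 83, 102 and 89.6 CPM. SLC16A1, the proton-linked carrier MCT1 that moves butyrate and lactate, stood at 211, 169, 114 and 189 CPM in HCT116 and 254, 177 and 179.8 CPM in the colon, where the groups overlapped (-1.49 points). SLC16A3, the carrier MCT4 that exports lactate, showed the opposite order at 499, 435, 473 and 392 CPM and 3.55, 4.67 and 2.47 CPM (61.6 ± 1.7 points). All HCT116 libraries were far above all colon libraries for it. ABCG2, an efflux pump, was lower (-26.7 points).

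Enzymes that burn fatty acids and make ketone bodies were lower in 13 of 30 and higher in none, with a median of -14.5 points. ACADS, the short-chain acyl-CoA dehydrogenase that takes butyryl-CoA to crotonyl-CoA, stood at 11.3, 22.2, 18.3 and 17 CPM in HCT116 and 329.8, 321 and 312 CPM in the colon (-44.5 ± 2.58 points, adjusted p = 1.13e-06). ACADL, the long-chain dehydrogenase, was listed at 0 in HCT116 and at 127, 107 and 104 CPM. ECHS1, which hydrates crotonyl-CoA in the next step, differed by -8.44 points and was not called, nor was the entry enzyme CPT1A (-5.85 points). PPARGC1A, the coactivator of mitochondrial genes, was lower (-51.9 points).

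Genes listed for the supply and removal of acyl-CoA for histones, outside that pathway, were lower in 8 of 14 and higher in 1. Over all tested genes 16.5% were lower and 16.3% higher. The median of the list was -21.2 points. ACSS1, the mitochondrial acetyl-CoA synthetase, was listed at 0.223, 0, 0 and 0 CPM in HCT116 and at 182, 200.4 and 198 CPM in the colon. ACSS2, its partner in cytosol and nucleus, which can also activate crotonate, stood at 35.9, 41.7, 33.9 and 37.3 CPM and 260.3, 262 and 253 CPM (-28.7 ± 1.38 points, adjusted p = 4.17e-07). ACSM3, a mitochondrial synthetase of medium-chain acyl-CoA, was lower (-52.9 points). ACLY, which makes acetyl-CoA from citrate, was not called (-2.14 points). CDYL, a chromodomain protein that hydrates crotonyl-CoA and so lowers histone crotonylation, was the member called higher, at 48.5, 49.4, 34.2 and 56.5 CPM against 13, 17 and 12.5 CPM (24.6 ± 2.03 points). Its relative CDYL2 was called lower (-24.3 points).

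Most writers and readers of histone acylation were not called, as were most tested genes. Of 16 members 1 was higher and 2 lower, against 16.3% and 16.5% of all tested genes, with a median of 0.3 points. The acetyltransferases EP300 and CREBBP, which also write crotonyl marks, differed by -12.1 and -7.01 points and were not called. KAT2B, an acetyltransferase of coactivator complexes, was lower (-31.3 ± 3.66 points). MLLT3, a YEATS-domain reader of crotonylated lysine, was lower (-25.5 points) and fell short of the limit per kb of exon (-10.78 points). HAT1, which acetylates new histone H4, was 23.2 points higher and likewise fell short per kb (7.84 points).

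**Figure D4:**
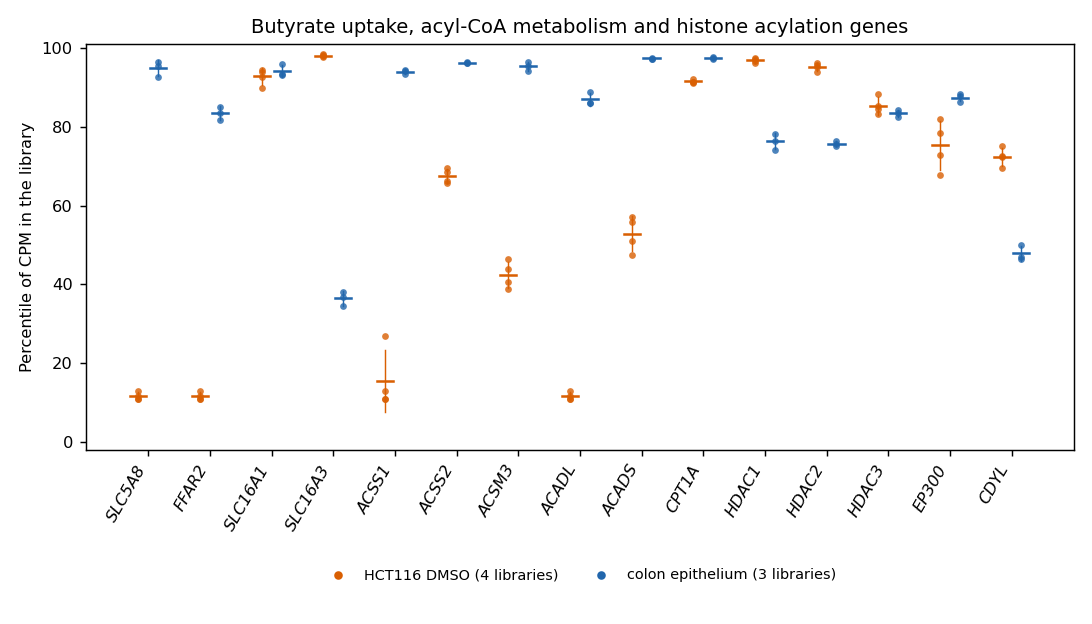
Percentile rank in each library of genes that transport, activate and burn short-chain fatty acids and of enzymes that write, read and remove histone acyl groups, with each library as a point, the group mean as a horizontal line and its SD as a vertical bar. SLC5A8 and ACADL lie at the bottom in HCT116 and at the 86th percentile or above in the colon, while HDAC3 points fall together.

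Of 17 histone deacylases 2 were higher and 2 lower, no larger a share than the 16.3% and 16.5% of all tested genes. Their median was 1.2 points. HDAC1 (human chr1:32292086-32333635, GRCh38) stood at 304, 353, 256 and 378 CPM in HCT116 and 64.7, 59.1 and 67.9 CPM in the colon (20.6 ± 1.02 points, adjusted p = 4.94e-07). HDAC2 stood at 234, 257, 171 and 267 CPM and 62.1, 64.5 and 59.4 CPM, a difference of 19.5 ± 0.865 points that missed the limit of 20 although its adjusted p was 2.79e-07. HDAC3 stood at 93.8, 88.9, 100.1 and 83 CPM and 95.3, 87.1 and 89.2 CPM, which did not differ beyond the spread (1.92 ± 1.37 points, adjusted p = 0.227). HDAC1 and HDAC2 thus lay higher in all 4 HCT116 libraries, and HDAC3 overlapped. Groups did not overlap for 78.5% of all tested genes. The calls are close to the limit: per kb of exon HDAC1 differed by 15.06 and HDAC2 by 5.68 points, without colon replicate 2 HDAC1 differed by 19.58, and ranked among tested genes alone HDAC2 differed by 25.41. SIRT1, a nuclear NAD-dependent deacetylase, was 20.2 points higher, while SIRT2, its mainly cytosolic relative, and HDAC11 were lower (-24.2 and -31.9 points). The call on SIRT1 was lost without HCT116 replicate 4 (19.05 points), without colon replicate 1 (19.41 points), with HCT116 thinned to the colon depth (19.83 points) and with HCT116 libraries treated with MS275, a class I histone deacetylase inhibitor, in place of the DMSO ones (15.39 points).

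The mouse HDAC1 value also carries a limit of its sequence. Of the 50-base windows in mouse Hdac1 transcripts 76.9% occur a second time in the mouse genome, against 1.69% in human HDAC1. The stretch below, coding bases 721 to 780, is shown because it is found unbroken in the mouse genome (GRCm38) at 1 place only, chr17:78492302-78492361 on the plus strand, inside Gm10093, an intronless processed pseudogene. In the gene itself (chr4:129516104-129542713) an intron divides it. Capitals in the human line mark the 3 bases that differ from mouse.
Mouse Hdac1: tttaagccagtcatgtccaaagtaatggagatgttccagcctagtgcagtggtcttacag
Human HDAC1: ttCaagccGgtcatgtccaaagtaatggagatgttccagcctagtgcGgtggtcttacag
Reads from such stretches can be placed at either locus. The Gm10093 row was listed at 49.6, 44.3 and 45.1 CPM in the colon libraries. With its counts added to Hdac1, the colon value became 114, 103 and 113 CPM and the difference 10.14 points, below the limit. This joining of rows was chosen after the values were seen, and the part of the copy in the HDAC1 difference was otherwise not tested.

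Sequence that occurs again elsewhere in the mouse genome was also common where HCT116 ranked higher most often. Among tested genes with over 50% of windows repeated in mouse, 134 of 278 were called higher (48.2%) and 5 lower (1.8%), against 15.2% and 17.4% of the 10252 genes with at most 10%. Of 114 genes over 50% repeated in human 18.4% were higher and 20.2% lower, without this tilt. At the limit of 10% a tilt was seen in both genomes. Over 10% repeated in human were 9.3% of genes called higher, 4.95% of those called lower and 7.27% of tested genes. In mouse these shares were 15.5%, 4.61% and 9.44%. The part of repeats in each gene's rank was not tested. Leaving out genes with over 10% repeated windows in either genome left 9591 tested, of which 1453 were higher and 1687 lower.

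**Figure D5:**
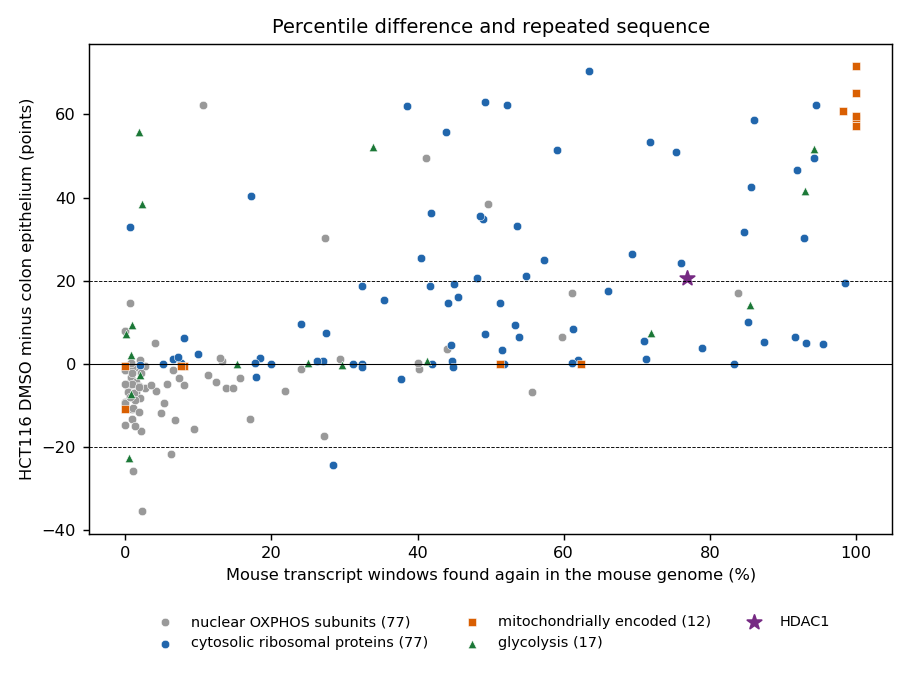
Percentile difference, HCT116 minus colon in points, against the share of mouse 50-base windows that occur again in the mouse genome, in percent, for nuclear oxidative phosphorylation, ribosomal protein, mitochondrially encoded and glycolytic genes and HDAC1. Each point is 1 gene, dashed lines mark 20 points, and the 6 mitochondrially encoded genes called higher stand at the upper right. Over all tested genes the median was 18.9 points above 50% and -0.45 points at 10% or less.

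Cytosolic ribosomal proteins were higher in 27 of 77 and lower in 1, with a median of 9.5 points. Per kb of exon 16 were higher and 1 lower, with a median of 3.6 points. They took 7.5%, 8.47%, 10.3% and 8.28% of HCT116 counts and 2.19%, 2.13% and 2.34% of colon counts, without overlap (exact two-sided permutation p = 0.0571, the smallest that 4 against 3 allows). RPS27, a protein of the small subunit, stood at 231, 323, 450.1 and 349 CPM and 0.367, 0.467 and 0.515 CPM (70.5 ± 1.73 points). Its colon values rest on 3, 5 and 5 counts, and 63.4% of its windows are repeated in mouse and 95.1% in human. The part of repeats in its low colon rank was not tested. RPLP0, of the ribosomal stalk, differed by 0.0897 points. Of the 36 members with over 50% repeated windows in mouse 17 were higher, and of the 8 with at most 10% 1 was. Leaving out repeated genes of either genome left 3 members tested, none of them called.

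Of 12 mitochondrially encoded genes 6 were higher and none lower, with a median of 28.6 points (12.4 per kb of exon), and without HCT116 replicate 3 there were 6 higher and 1 lower. Of the 8 members with over 50% repeated windows in mouse 6 were higher, and of the 4 with at most 10% none was. In human 7 of the 12 have over 10% repeated. MT-CO3, a subunit of cytochrome c oxidase, stood at 2808, 2072, 13359 and 3144 CPM in HCT116 and 5.63, 4.95 and 8.35 CPM in the colon. MT-ND1, a subunit of complex I encoded on the same molecule, stood at 1223, 696, 5833 and 954 CPM and 4787, 3844 and 5232 CPM (-0.515 points). The 2 genes ranked together in HCT116 and far apart in the colon. The 6 higher genes were MT-CO2, MT-ATP8, MT-ATP6, MT-CO3, MT-ND3 and MT-ND4L, which lie next to each other. All but MT-ND3 are 100% identical to a copy on mouse chromosome 1, and MT-ND3 is 99.7% identical, while MT-ND1 is not repeated (0% of windows). The stretch below, MT-CO3 gene bases 364 to 423, shows the copy: it occurs at chrMT:8970-9029 and, letter for letter, at chr1:24613549-24613608 on the minus strand (GRCm38), inside Gm28437, an unprocessed pseudogene. Capitals in the human line mark the 15 bases that differ from mouse.
Mouse mt-Co3: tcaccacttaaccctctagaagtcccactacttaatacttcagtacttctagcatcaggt
Human MT-CO3: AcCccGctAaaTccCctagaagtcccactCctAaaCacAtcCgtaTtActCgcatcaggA
The study's mouse counts were of uniquely placed reads, and reads with such letters have more than 1 place; the part of this in the ranks was not tested further. The share of counts in mitochondrially encoded genes was 1.57% to 9.28% in HCT116 and 2.93% to 4.38% in the colon (exact permutation p = 0.914), and without HCT116 replicate 3 the difference of means was -1.72 percentage points in place of 0.102.

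Nuclear-encoded subunits of oxidative phosphorylation were called higher in 4 of 78 and lower in 3, with a median of -4.7 points. Without the 20-point limit 12 were higher and 49 lower, against 39.7% and 38% of all tested genes, and per kb of exon 2 were higher and 8 lower of 68 with exon lengths. All 4 higher calls fell among the 19 genes with 10% to 50% of windows repeated in mouse, and the 54 with at most 10% held 0 higher and 3 lower. The catalytic subunit of complex II, SDHA, differed by -7 points, and UQCRC1 of complex III by -2.19 points. ATP5G2 and NDUFB4, the most raised at 62.3 and 49.5 points, had 10.6% and 41.1% of windows repeated in mouse. COX7A1, a muscle-type subunit of cytochrome c oxidase, was lower (-35.4 points).

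Glycolytic enzymes were higher in 5 of 17 and lower in 1, against 16.3% and 16.5% of all tested genes, with a median of 7.3 points. LDHB, a lactate dehydrogenase subunit, stood at 1367, 1223, 919.7 and 1207 CPM in HCT116 and 13.6, 16 and 11.4 CPM in the colon, with 33.9% of windows repeated in mouse. ENO2, the neuronal enolase, stood at 65.2, 59.4, 33.7 and 51.6 CPM and 0, 0.28 and 0.103 CPM (55.7 ± 3.61 points), with 1.82% repeated. HK2, a hexokinase, was lower (-22.6 points), and LDHA and PKM ranked near the top in both (-0.29 and 0.755 points). With repeated genes left out 6 members remained, 2 of them higher.

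Lists for leukocytes, stroma and nerve were measured for cells other than epithelium. Of 26 immune genes 14 were lower in HCT116 and none higher (median -21.5 points), and 8 were lower when ranks were taken over tested genes alone (median -12.9 points). The list summed to 30.8 to 39.4 CPM in HCT116 and 174 to 256 CPM in the colon. PTPRC, the leukocyte phosphatase CD45, stood at 0.0668, 0, 0 and 0 CPM in HCT116 and 13.8, 20.4 and 22.3 CPM in the colon. Of the 31 matched members 9 were listed at 0 in all HCT116 libraries and 0 in all colon libraries. CD3E, of the T-cell receptor complex, was at 3.8, 5.7 and 9.48 CPM in the colon, and CD14, a receptor of bacterial lipopolysaccharide, differed by -52.6 points. The part of leukocytes in other differences was not tested. Stromal, muscle and endothelial genes were higher in 3 of 18 and lower in 3, near the 16.3% and 16.5% of all tested genes (median -11.2 points, and 2 higher and 1 lower with a median of -6 points over tested genes alone). They summed to 48.2 to 98.1 CPM against 95.6 to 121 CPM. SPARC, a matrix protein, stood at 6.57, 47.8, 10.1 and 47.5 CPM in HCT116 and 4.65, 3.08 and 2.47 CPM in the colon (22.1 ± 7.25 points), with replicates 2 and 4 far above replicates 1 and 3, and it was no longer called without HCT116 replicate 2 or 4 or colon replicate 2 or 3. TWIST1, a factor of mesenchyme, was higher (25.5 points) and DCN, a matrix proteoglycan, lower (-23.8 points), and both calls were lost when ranks were taken over tested genes alone (13.89 and -12.05 points). Of 4 tested genes of enteric neurons and glia 1 was higher: TUBB3, a tubulin of neurons, at 159.8, 155, 164 and 135 CPM in HCT116 and 1.59, 0.841 and 0.309 CPM in the colon (63.3 points).

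Antigen presentation and interferon genes did not move as 1 group, with 1 of 19 higher, 4 lower and a median of -3.5 points. Over all tested genes 16.3% were higher and 16.5% lower. With ranks over tested genes alone 4 members were higher and 3 lower. Without HCT116 replicate 1 there were 2 higher and 6 lower, without HCT116 replicate 3 there were 3 higher and 4 lower, and without colon replicate 1 there were 2 higher and 4 lower. ISG15, the interferon-induced ubiquitin-like modifier, stood at 89.6, 60.7, 105 and 49.1 CPM in HCT116 and 2.45, 6.44 and 2.06 CPM in the colon (44.3 points). IRF7 and PSMB8, an interferon factor and an immunoproteasome subunit, were lower (-41.3 and -37.5 points), and B2M, the light chain of class I molecules, differed by -0.174 points. HOX genes, which record position along the body, were higher in 6 of 32 and lower in 4, near the 16.3% and 16.5% of all tested genes, with a median of -1.3 points that ran from -3.6 without HCT116 replicate 3 to -0.4 without replicate 4 (3 higher and 6 lower over tested genes alone, and 6 and 7 per kb of exon with a median of 1.7 points). The higher genes included HOXC9 and HOXC13 (38.1 and 31.6 points), and the lower ones HOXB13 and HOXD4 (-35.2 and -33.6 points). HOXB13, a hindgut gene, stood at 14.9, 18.1, 22.2 and 15.1 CPM in HCT116 and 166, 85.7 and 141 CPM in the colon.

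At the extremes, 97 genes had at least 10 CPM in HCT116 and were listed at 0 in all colon libraries, and 182 genes showed the reverse. Among genes with at least 10 CPM in HCT116, the largest differences after DKK1 were those of NR2F1, an orphan nuclear receptor (86.9 points), and NTSR1, the neurotensin receptor (85.8 points). They were followed by MAGEB2, a testis antigen with 93.7% of windows repeated in mouse (83.9 points), S100A4, a calcium-binding protein of motile cells (83.2 points), and CRABP2, a carrier of retinoic acid (83 points). NPW, a neuropeptide, and CYP24A1, which degrades vitamin D, came next at 81.2 and 79.4 points. NTSR1 stood at 191, 286, 266 and 282 CPM and CRABP2 at 197, 156, 161 and 162 CPM in HCT116, and both were listed at 0 in the colon. The most lowered genes included colon products: LGALS4, AGR2, ZG16, SPINK4, TFF3, CDHR5 and PIGR. PIGR, which carries immunoglobulin A across the epithelium, was listed at 0 in HCT116 and at 5881, 5854 and 6047 CPM (-88.4 points). TFF3, the trefoil peptide of mucus, was listed at 0 and at 793, 622 and 636 CPM.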

How the data were processed

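Poly(A)-selected, strand-marked libraries (NEBNext Ultra Directional) had been sequenced, and the authors deposited raw read counts per gene in 1 table for HCT116 (35805 rows) and 1 for mouse colon epithelium (25965 rows). The study's methods give HiSat2 alignment to GRCm38 and counting in SeqMonk of uniquely mapped reads for mouse, whereas the submitters' processing notes name Trim Galore 0.4.2, TopHat2 2.0.12 and Bowtie2 2.2.5 with the builds GRCh38 and GRCm38. Which of these made the HCT116 counts is not given in the sources used here.

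From the deposited counts CPM were computed with the total of all rows of the table. Names present once in both tables were kept, 14862 genes, and matched in capitals. Percentile ranks of CPM within each library, ties averaged, were fitted with limma 3.58.1 (lmFit, eBayes with trend) for 4 HCT116 DMSO against 3 colon libraries, and p-values were adjusted by Benjamini-Hochberg over the 11400 genes with a mean of at least 1 CPM in either group. A call needed adjusted p under 0.05 and at least 20 points. The study's methods describe the HCT116 libraries as 4 biological replicates and the colon libraries as coming from 3 mice. Totals per library were 36312506 to 53415604 counts in HCT116 and 8166406 to 10707901 in the colon, and limits from counts cover counting error only. No sample was dropped. On simulated data with known changes the fit called 85 of 100 genes changed 4-fold, 100 of 100 changed 16-fold and 0 of 10857 unchanged genes. Unchanged genes were drawn from the same mean in both groups, with a dispersion of 0.05. The simulation held no difference of gene models, repeated sequence or species, so it gives no error rate for the comparison of these materials.

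HDAC1, HDAC2 and HDAC3 were named, with up to 2 called members per direction of 26 gene lists having the largest difference, and the 8 largest differences per direction among called genes with at least 10 CPM in the higher group and no overlap. Other list members are named where a list is described. Some genes that meet the rule are not reported here. The genes, the lists and the tests were chosen with earlier results of these data known. Repeated sequence was counted as the share of 50-base windows of a gene's exons, taken every 5 bases, that occur again in the same genome (GENCODE 44 for human, M21 for mouse, with the GRCh38 and GRCm38 genomes). Alternatives were edgeR 4.0.16, DESeq2 1.42.0, quantile normalization, other filters, limits, ranks and depth, the MS275-treated HCT116 libraries, a replicate block and leaving out each library.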

Additional observations from a re-analysis of the deposited data

Results flagged for a closer look

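Of 87 groups of 4 HCT116 libraries tested for a single library far from the rest, 14 stood out, 8 of them because of replicate 3, while chance marks about 1 group in 20. Replicate 3 held 9.28% of its counts in mitochondrially encoded genes, 10.3% in its 10 largest genes and 28.5% in its 100 largest, each above the other HCT116 libraries. DKK1, the Wnt antagonist, lay at percentile 94.7 in replicate 3 against 97.8 to 97.9 in the others, and HAT1, the histone H4 acetyltransferase, at 70.2 against 86.2 to 89.2. CHGB lay at percentile 31 in replicate 3, COX7A1 at 26.3 and REG4 at 23.7, where the other HCT116 libraries lay at 13 or below. In replicate 1, ACSS1 (27), CNN1, a smooth muscle protein (28.9), and PTPRC (24.4) lay above others at 13 or below, so that a few counts in 1 library set these percentiles. NTSR1 lay at percentile 93.7 in replicate 1 against 96.3 to 96.5, and RPL17 at 98.4 against 98.7 to 98.8. IL1RN lay at percentile 13 in replicate 2 against 26 to 27.9. The cause was not tested for any of them.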

How the results depend on the processing

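The counts of called genes, 1854 higher and 1884 lower, stayed within 1.5 times under every alternative except the limit on the difference. With no minimum difference 4531 were higher and 4331 lower, and with 30 points 866 and 941. Which genes were called moved more than the counts. Per kb of exon 1454 of the 1854 higher calls (78.4%) and 1480 of the 1884 lower calls (78.6%) were kept. With ranks over tested genes alone 88% and 84.4% were kept. Leaving out 1 library gave 1852 to 1898 higher and 1878 to 1907 lower, and edgeR with the same limit gave 1854 and 1880. The replicate numbers did not pair the libraries: deviations of same-numbered libraries correlated at 0.002, -0.002 and -0.035, and adding these numbers as a replicate block gave 1854 higher and 1884 lower. Thinned to the colon depth, HCT116 gave 1853 and 1888.

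The median rank correlation across materials was 0.562 over tested genes and 0.714 per kb of exon, and within the colon 0.992 and 0.987. The difference in mitochondrially encoded share turned to -0.191 percentage points over matched genes, to -0.293 without colon replicate 2, and ranged from -1.72 (without HCT116 replicate 3) to 0.851 when 1 library was left out, and that in the 100 largest genes from -0.732 (without HCT116 replicate 3) to 2.32. The number of genes at 1 CPM or more was 389.4 higher in HCT116 and became -351.7 over matched genes, where only genes of both tables count. Of 1861 values of the 82 named genes under 23 settings, 1824 kept their direction and side of the limit, 35 lost the call, 2 gained it (HDAC2) and 0 reversed. Settings that changed only the test kept the percentile differences, so there a call could change only through p or sign. SPARC, at 22.1 points, lost its call without HCT116 replicate 2 (17.73) or 4 (17.84) and without colon replicate 2 (21.89) or 3 (21.26). The added settings, repeated genes left out and Gm10093 counts joined to Hdac1, were chosen after seeing the data. Matching by symbol and 3 or 4 libraries a group limit every comparison. The cause of these shifts was not tested.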

Other observations

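Some colon genes carry different symbols in the 2 species and so entered no ranking; 6 such pairs were read by hand, with no test. Carbonic anhydrase 1 of the colonocyte (CA1 in human, Car1 in mouse) was listed at 0 in every HCT116 library and at 1427, 881 and 1149 CPM in the colon. Carbonic anhydrase 2 (CA2, Car2) stood at 56.6, 60.1, 31.3 and 56 CPM in HCT116 and 879, 819 and 946 CPM in the colon. The membrane mucin MUC3A (Muc3) stood at 9.95, 15.6, 10.4 and 17.1 CPM against 1078, 832 and 614 CPM. The peroxisomal thiolase ACAA1 (Acaa1a) stood at 30.4 to 48.1 CPM against 159.7 to 184 CPM. The glycolytic isomerase GPI (Gpi1) stood at 607 to 732 CPM in HCT116 and 642 to 658 CPM in the colon. CA4 (Car4) was at most 0.23 CPM in HCT116 and 180.7 to 290.6 CPM in the colon. A CPM ratio between the gene models of 2 species has no direct reading, so these are given as values.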
